A study of Mus musculus with 6 samples.

Results

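The 7 genes described here encode the scaffold and the regulatory, non-catalytic subunits of the CCR4-NOT complex of the mouse: Cnot1, Cnot2, Cnot3, Cnot4, Rqcd1 (the subunit also called Cnot9), Cnot10 and Cnot11. They were chosen by symbol as subunits of the complex, and make up 7 of the 24421 gene symbols in the table. All 7 passed the filter on low values and were tested among 13010 genes. Their transcripts were measured in whole heart of C57BL6/J mice aged 4 weeks. The groups were RNA brought down from heart lysate with an antibody against Cnot3 (Cnot3 RIP, 2 libraries), RNA brought down with a control antibody (control IgG RIP, called IgG RIP here, 2 libraries) and RNA of the lysate itself (Input, 2 libraries). No genotype or drug distinguished the groups, and the labels do not state the animals' sex or whether the 2 libraries of a group came from separate animals or pools. The p-values therefore rest on the spread between 2 libraries a group, and that spread may be technical only.

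CCR4-NOT shortens the poly(A) tail of cytoplasmic mRNAs, the step that usually starts their decay and lowers their translation. Cnot1 is the long scaffold on which the other subunits sit. Cnot2 and Cnot3 form a dimer at its C-terminal end, Rqcd1 holds the pockets that receive the TNRC6 proteins of microRNA silencing, and Cnot10 with Cnot11 sits at the N-terminal end. Cnot4 is a RING-type ubiquitin ligase that is a firm part of the yeast complex and is only loosely attached in mammals. In mice, lowered or absent Cnot3 is known to impair the pumping of the heart. RNA immunoprecipitation (RIP) reads which transcripts accompany a protein. What is reported here is the transcripts of the subunits themselves, not the subunit proteins.

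The complex is brought to many mRNAs by proteins that bind short elements in the 3′ UTR, so these elements were searched in the members' own 3′ UTRs. The searches used the longest coding transcript of each gene in GENCODE M21 (GRCm38) and the mRNA strand only, with T written for U. The AU-rich pentamer ATTTA, bound by the Zfp36 family, occurred 6 times in Cnot11, 4 times in Rqcd1, 2 times in Cnot2 and 1 time each in Cnot1, Cnot3 and Cnot4, and it was not found in Cnot10. The sites below are shown because Cnot3, Rqcd1 and Cnot4 had the largest differences between Cnot3 RIP and IgG RIP, with the pentamer in capitals and position 1 at the first base after the stop codon.
Cnot3, position 249 of 283, GRCm38 chromosome 7: ttggaaaatATTTAtgaataaat
Rqcd1, position 1502 of 1988, GRCm38 chromosome 1: agaataagcATTTAttcccctgc
Cnot4, position 565 of 1060, GRCm38 chromosome 6: agcaaagggATTTAttggaagtt
The Cnot3 site lies 30 bases before the transcript's end. Among 11845 tested genes with a 3′ UTR, 67.6% held at least 1 ATTTA. Among the 960 of these with a 3′ UTR of about Cnot3's length the share was 36%, and among the 1829 of about Rqcd1's length it was 90.9%. The longer AU-rich form TTATTTATT was not found in any of the 7, and 7.54% of all 3′ UTRs held it.

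The Pumilio element TGTANATA, where N is any base, was found 1 time each in Cnot1, Cnot2 and Cnot11 and was not found in the other 4. It occurred in 25.2% of all 3′ UTRs. These 3 sites are printed with the element in capitals, so that the member transcripts that hold it can be compared.
Cnot1, position 230 of 956, GRCm38 chromosome 8: ttgaacttgTGTAAATAtatgaaaga
Cnot2, position 699 of 1034, GRCm38 chromosome 10: gtacgaatgTGTATATAttatatata
Cnot11, position 1591 of 1623, GRCm38 chromosome 1: cagctgaaaTGTAAATAaaataattt
The Cnot11 element overlaps the letters AATAAA near the transcript's end. None of the printed Pumilio elements overlaps an ATTTA. Matches describe these letters only and do not show a bound site.

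The libraries held 15713318 to 33479580 reads, of which Rn45s, the ribosomal RNA precursor, took 51.1% to 79.2%. Without it 3407528 to 12500739 reads were left. The 7 members together had 3892 and 6197 reads in Cnot3 RIP, 3739 and 3141 in IgG RIP and 1423 and 2666 in Input. A single member had between 60 reads (Cnot3 in Input replicate 1) and 3372 reads (Cnot1 in Cnot3 RIP replicate 2). All 7 heart muscle markers were present in every library, at a sum of 18193 to 34361 scaled CPM, while 4 liver markers summed to at most 1.27. Cnot3 RIP replicate 1 lay closer to IgG RIP replicate 2, with an SD of the log2 difference per gene of 0.45, than to Cnot3 RIP replicate 2, with an SD of 0.59. Where a single Cnot3 RIP library decided a result, its value with that library left out is also given. In bulk libraries, fewer cells of a type and less RNA per cell cannot be told apart.

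Values below are scaled CPM: the deposited CPM (reads of a gene per fixed number of reads in the library), rescaled between libraries with TMM factors. A fold change is the difference of group means of log2(scaled CPM + 0.25) from 1 limma fit over all 13010 genes, which understates the change of low genes. A gene was called at a Benjamini-Hochberg adjusted p under 0.05. At this size the smallest p of an exact permutation test is 0.333, and each gene is given its limma p instead. The 3 comparisons share libraries, so their values for a member are not independent of each other.

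Setting Cnot3 RIP against IgG RIP asks what the Cnot3 antibody recovered beyond the procedure's background. The transcripts of the Cnot3 and Rqcd1 subunits lay above control in both libraries and those of Cnot4 and Cnot10 lay below it in both. Cnot1, Cnot2 and Cnot11 had overlapping groups. By limma 0 of the 7 members were called, while 1.81% of all genes tested were called in this comparison. At an unadjusted p under 0.05, Cnot3 and Rqcd1 were higher and Cnot4 was lower, where 10.9% of all genes were higher and 6.33% lower. edgeR's quasi-likelihood test and DESeq2 on the recovered reads also called 0 of 7, where they called 2.28% and 5.65% of all genes. Groups that do not overlap were common among all genes, 24% higher and 21.8% lower, so the 2 members above and 2 members below are near the background. The members' median log2 fold change was 0.17, with a range of −0.52 to 0.81, beside −0.003 over all genes.

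**Figure D1:**
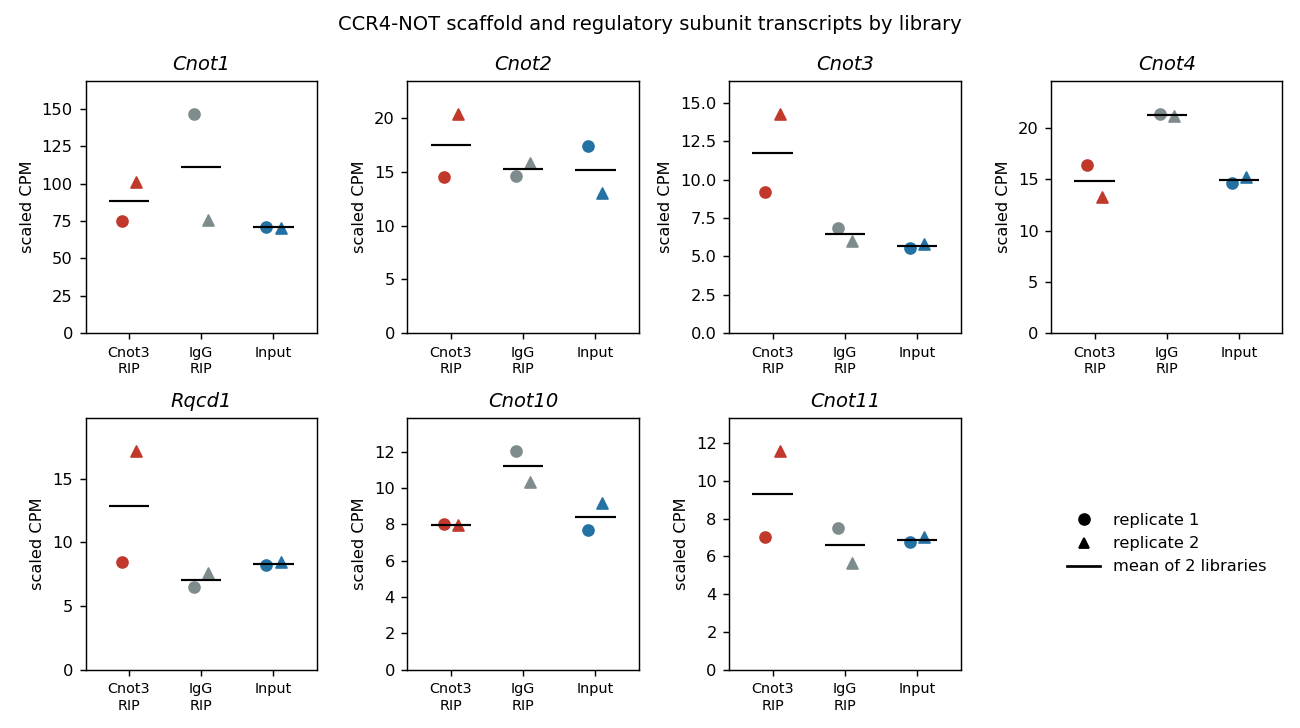
Scaled CPM (vertical axes, starting at 0) of each of the 7 subunit transcripts in Cnot3 RIP, IgG RIP and Input, with circles for replicate 1, triangles for replicate 2 and a line at the mean of the 2 libraries. Cnot3 stands at 9.19 and 14.3 in Cnot3 RIP, above both IgG RIP and both Input libraries, while Cnot4 and Cnot10 are highest in IgG RIP.

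The gene of the precipitated subunit, Cnot3, lies at GRCm38 chr7:3645268-3661109 on the plus strand. Its transcripts stood at 9.19 and 14.3 scaled CPM in Cnot3 RIP, at 6.86 and 6.03 in IgG RIP and at 5.54 and 5.79 in Input. Both Cnot3 RIP libraries were above all 4 others, and the groups did not overlap. The means were 11.7 ± 3.61 in Cnot3 RIP, 6.44 ± 0.592 in IgG RIP and 5.67 ± 0.179 in Input (SD, n = 2 each). Cnot3 RIP over IgG RIP gave a log2 fold change of 0.81 (SE 0.27, 95% confidence interval 0.21 to 1.41), 1.75-fold, with a limma adjusted p = 0.155 that did not pass. Cnot3 RIP over Input gave 0.99 (SE 0.27, interval 0.39 to 1.59), 1.98-fold, with a limma adjusted p = 0.0525, just outside the threshold. edgeR's quasi-likelihood test (log2 fold change 1.05, adjusted p = 0.0477) and DESeq2 (1.02, adjusted p = 0.0320) placed that difference just inside it. Control IgG RIP over Input gave 0.18 (SE 0.27, interval −0.42 to 0.77, limma adjusted p = 0.724).

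The Cnot3 value rested on how the 2 Cnot3 RIP libraries were weighed. Without Cnot3 RIP replicate 1 the log2 fold change over IgG RIP was 1.13 (limma adjusted p = 0.0295), and without replicate 2 it was 0.50 (adjusted p = 0.749). In such a fit the single library left is assumed to vary like the other groups. Without Cnot3 RIP replicate 1, 9.74% of all genes were called, against 1.81% with all libraries. Over Input the value was 1.30 without Cnot3 RIP replicate 1 (limma adjusted p = 0.0132) and 0.67 without replicate 2. The direction was the same in each of the 6 fits that leave out a library, in both comparisons. It could hardly differ, because both Cnot3 RIP libraries lay above every other library.

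Cnot3 shares 382 exon bases with Leng1, which lies on the opposite strand. The sources used here do not say whether the counting used strand, and without strand the reads of that stretch cannot be told apart. Leng1 itself stood at 4.45 and 3.18 scaled CPM in Cnot3 RIP, at 4.04 and 3.49 in IgG RIP and at 5.82 and 6.66 in Input. Its values were lower in Cnot3 RIP than in Input and overlapped between Cnot3 RIP and IgG RIP. The part of Leng1 reads in the Cnot3 values was not tested.

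Cnot2, the partner of Cnot3 in the dimer, is encoded at GRCm38 chr10:116485161-116581511 on the minus strand. It had 14.5 and 20.4 scaled CPM in Cnot3 RIP, 14.6 and 15.9 in IgG RIP and 17.4 and 12.99 in Input. The 3 groups overlapped. Its log2 fold change was 0.17 over IgG RIP (interval −0.40 to 0.75, limma adjusted p = 0.828) and 0.19 over Input (interval −0.38 to 0.77). Both intervals include 0.

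The ratio of the 2 partners' levels within a library does not depend on how libraries are scaled. Per kilobase of exon, Cnot3 stood at 0.780 and 0.866 of Cnot2 in Cnot3 RIP, at 0.578 and 0.469 in IgG RIP and at 0.394 and 0.551 in Input. Both Cnot3 RIP ratios were above the other 4.

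The scaffold Cnot1, at GRCm38 chr8:95719451-95807464 on the minus strand, was the most abundant of the 7. It had 75.0 and 101 scaled CPM in Cnot3 RIP, 147 and 75.7 in IgG RIP and 71.2 and 70.1 in Input. The IgG RIP libraries differed from each other more than any 2 groups did in their means, with 111 ± 50.2 there beside 88.0 ± 18.4 in Cnot3 RIP and 70.6 ± 0.810 in Input (SD, n = 2 each). Cnot3 RIP over IgG RIP gave a log2 fold change of −0.27 (SE 0.32, interval −0.99 to 0.44, limma adjusted p = 0.764), which was 0.17 without IgG RIP replicate 1 and 0.044 with libraries scaled by total reads. Cnot3 RIP over Input gave 0.30 (interval −0.42 to 1.02), with both Cnot3 RIP libraries above both of Input. The summed heart muscle markers were also highest in IgG RIP replicate 1, at 34361 scaled CPM, against 18783 in its replicate 2, and their part in the Cnot1 value was not tested. Cnot1 shares 132 exon bases with the antisense gene 4930513N10Rik, which stood at 0.634 to 1.94 scaled CPM.

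Rqcd1 is encoded at GRCm38 chr1:74506058-74530842 on the plus strand. Its transcripts stood at 8.44 and 17.2 scaled CPM in Cnot3 RIP, at 6.52 and 7.61 in IgG RIP and at 8.22 and 8.45 in Input. Cnot3 RIP replicate 2 was high, and replicate 1 lay within the range of Input. The means were 12.8 ± 6.20 in Cnot3 RIP, 7.06 ± 0.774 in IgG RIP and 8.33 ± 0.163 in Input (SD, n = 2 each). The log2 fold change of Cnot3 RIP over IgG RIP was 0.76 (SE 0.32, interval 0.03 to 1.48), 1.69-fold, with a limma adjusted p = 0.269. It was 1.27 without Cnot3 RIP replicate 1 (limma adjusted p = 0.0171) and 0.26 without replicate 2 (adjusted p = 0.878). Over Input it was 0.52 (interval −0.20 to 1.246, limma adjusted p = 0.337). It was 1.03 over Input without Cnot3 RIP replicate 1 and 0.020 without replicate 2.

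Markers of other heart cells also differed between the 2 Cnot3 RIP libraries. The 4 endothelial markers summed to 363 and 192 scaled CPM in Cnot3 RIP, to 213 and 349 in IgG RIP and to 264 and 214 in Input. The 4 fibroblast markers summed to 473 and 261 in Cnot3 RIP, to 309 and 442 in IgG RIP and to 397 and 353 in Input. The 4 leukocyte markers summed to 40.6 to 65.2 scaled CPM and the 3 of smooth muscle to 15.7 to 28.4, both lower in Cnot3 RIP replicate 2 than in replicate 1. Of the 4 erythroid markers, Hba-a1, Hbb-bs and Hbb-b1 were listed at 0 in every library, while Alas2 stood at 6.09 to 13.7 scaled CPM. Cnot3 RIP replicate 2, the library with the highest Cnot3, Rqcd1 and Cnot11, thus had lower endothelial and fibroblast sums than replicate 1, and the part of those cells in these values was not tested.

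Cnot11, at GRCm38 chr1:39534992-39546889 on the plus strand, and Cnot10, at GRCm38 chr9:114585878-114640184 on the minus strand, encode the 2 subunits of the N-terminal module. Cnot11 had 7.05 and 11.6 scaled CPM in Cnot3 RIP, 7.50 and 5.66 in IgG RIP and 6.74 and 7.001 in Input. Cnot10 had 8.01 and 7.94 in Cnot3 RIP, 12.1 and 10.3 in IgG RIP and 7.67 and 9.17 in Input. Cnot11 in Cnot3 RIP thus overlapped IgG RIP with a higher mean, and Cnot10 lay below IgG RIP without overlap. The log2 fold change of Cnot3 RIP over IgG RIP was 0.46 for Cnot11 (SE 0.29, interval −0.19 to 1.11, limma adjusted p = 0.485). For Cnot10 it was −0.47 (SE 0.23, interval −0.99 to 0.04, limma adjusted p = 0.336). Over Input, Cnot10 gave −0.070 (interval −0.58 to 0.44) and Cnot11 gave 0.39 (interval −0.26 to 1.03). With Cnot3 RIP replicate 1 left out, Cnot11 gave 0.82 over IgG RIP and 0.74 over Input, and with replicate 2 left out it gave 0.12 over IgG RIP and 0.038 over Input.

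Within a library, Cnot11 per kilobase stood at 0.816 and 1.35 of Cnot10 in Cnot3 RIP, at 0.576 and 0.508 in IgG RIP and at 0.815 and 0.707 in Input. The ratio in Cnot3 RIP replicate 1 was almost that of Input replicate 1, and both IgG RIP ratios were the lowest. At 1.35, the ratio in Cnot3 RIP replicate 2 was the highest.

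Cnot4, the ubiquitin ligase, lies at GRCm38 chr6:35022065-35133724 on the minus strand. It had 16.4 and 13.2 scaled CPM in Cnot3 RIP, 21.4 and 21.2 in IgG RIP and 14.7 and 15.3 in Input. The IgG RIP libraries were above all 4 others, and Cnot3 RIP overlapped Input. The means were 14.8 ± 2.22 in Cnot3 RIP, 21.3 ± 0.168 in IgG RIP and 14.97 ± 0.405 in Input (SD, n = 2 each). Cnot3 RIP over IgG RIP gave a log2 fold change of −0.52 (SE 0.22, interval −1.01 to −0.03, limma adjusted p = 0.258). Cnot3 RIP over Input gave −0.022 (SE 0.22, interval −0.51 to 0.47). Control IgG RIP over Input gave 0.50 (SE 0.22, interval 0.01 to 0.99, limma adjusted p = 0.193).

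**Figure D2:**
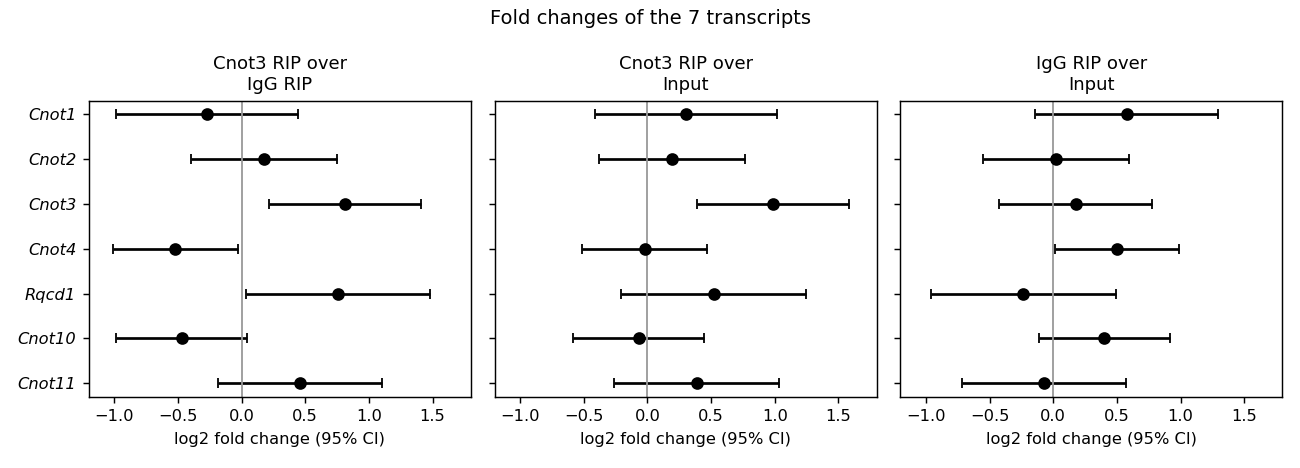
Log2 fold changes (horizontal axes) of the 7 transcripts with 95% confidence intervals from the limma fit, for Cnot3 RIP over IgG RIP (left), Cnot3 RIP over Input (middle) and IgG RIP over Input (right). The interval of Cnot3 lies above 0 in the left and middle panels, at 0.21 to 1.41 and 0.39 to 1.59, and that of Cnot4 lies below 0 on the left and above 0 on the right.

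Against Input, 0 of the 7 members were called in Cnot3 RIP by limma, while 8.32% of all genes were called. At an unadjusted p under 0.05, Cnot3 alone was higher and no member was lower, where 15.5% of all genes were higher and 11.8% lower. edgeR's quasi-likelihood test and DESeq2 called 1 of 7, Cnot3, where they called 8.86% and 12.2% of all genes. Cnot1, Cnot3 and Cnot11 were above Input in both Cnot3 RIP libraries, and no member was below it in both. Of all genes 30.6% were above without overlap and 26.9% below. The members' median log2 fold change was 0.30, beside 0.06 over all genes. With libraries scaled by total reads, where Rn45s takes most of Input, the median of all genes moved to 1.02 and the median of the members to 1.38. All 7 were then called higher, Cnot4 and Cnot10 among them, where 59.6% of all genes were called.

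Setting IgG RIP against Input shows what the procedure recovered without the Cnot3 antibody. By limma, edgeR's quasi-likelihood test and DESeq2 0 of 7 members were called, where limma called 4.07% of all genes, 2.58% higher and 1.49% lower. Of all genes, edgeR called 2.61% and DESeq2 5.47%. Cnot4 alone was higher at an unadjusted p under 0.05, as were 13.3% of all genes. Cnot1, Cnot3, Cnot4 and Cnot10 were above Input in both control libraries and Rqcd1 was below it in both, where 29.7% and 29.3% of all genes were. The log2 fold change of Cnot1 was 0.58 (interval −0.14 to 1.29), which was 0.080 without IgG RIP replicate 1 and 1.05 without replicate 2. It was 0.40 for Cnot10 (interval −0.11 to 0.92) and −0.24 for Rqcd1 (interval −0.96 to 0.49). For Cnot2 and Cnot11 it was 0.021 and −0.073. Scaled by total reads, which moved the median of all genes to 0.70, 4 members were called higher (Cnot1, Cnot3, Cnot4 and Cnot10). Of all genes 33.8% were called there. Rqcd1 and Cnot11 changed sign with that scaling, to 0.50 and 0.66. The Cnot10 and Cnot4 values below IgG RIP in Cnot3 RIP thus came with control libraries that lay above Input.

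**Figure D3:**
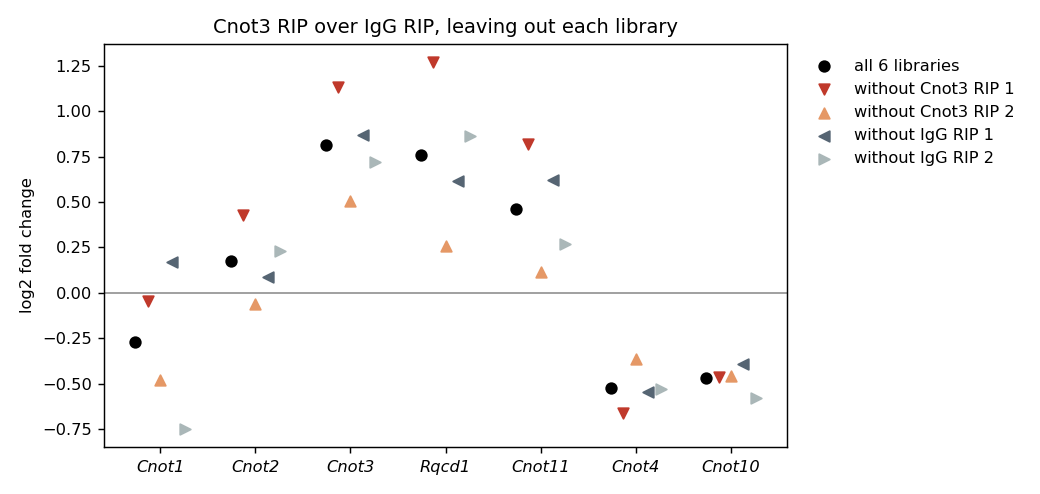
Log2 fold change of Cnot3 RIP over IgG RIP (vertical axis) for each of the 7 transcripts, with all 6 libraries and without each Cnot3 RIP or IgG RIP library in turn. Cnot3, Rqcd1 and Cnot11 stay above 0 and Cnot4 and Cnot10 below 0 in these fits, while Cnot1 and Cnot2 change sign.

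To compare levels between the 7 genes, scaled CPM were divided by the length of each gene's exons in kilobases. In Input, Cnot1 was highest at 8.42 ± 0.0965 scaled CPM per kilobase (SD, n = 2), then Cnot2 at 4.36 ± 0.888, Cnot4 at 3.04 ± 0.0823 and Cnot10 at 2.61 ± 0.331. Rqcd1 at 2.55 ± 0.0498, Cnot3 at 2.01 ± 0.0633 and Cnot11 at 1.97 ± 0.0527 were the lowest in Input. The libraries of Cnot10 and Rqcd1 overlapped, as did those of Cnot3 and Cnot11, so those neighbours in the order were not separated.

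In Cnot3 RIP the order was Cnot1 at 10.5 ± 2.197 scaled CPM per kilobase (SD, n = 2), Cnot2 at 5.01 ± 1.19, Cnot3 at 4.16 ± 1.28 and Rqcd1 at 3.92 ± 1.90, followed by Cnot4 at 3.01 ± 0.450, Cnot11 at 2.68 ± 0.924 and Cnot10 at 2.47 ± 0.0153. There each neighbouring pair overlapped except Cnot1 and Cnot2. By mean, Cnot3 thus ranked above Rqcd1 and Cnot4 in Cnot3 RIP, below Cnot4 and Cnot10 in IgG RIP, and below Rqcd1 too in Input. In IgG RIP, Cnot1 was first at 13.2 ± 5.98 and Cnot2 and Cnot4 followed at 4.38 ± 0.245 and 4.32 ± 0.0341. Cnot10 at 3.47 ± 0.378, Cnot3 at 2.28 ± 0.210, Rqcd1 at 2.16 ± 0.237 and Cnot11 at 1.89 ± 0.372 came after them in IgG RIP. The overlapping neighbours in IgG RIP were Cnot2 with Cnot4, Cnot3 with Rqcd1 and Rqcd1 with Cnot11.

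As a share of the 7 levels per kilobase, Cnot3 took 12.2% and 13.8% in Cnot3 RIP, 6.69% and 7.86% in IgG RIP and 7.78% and 8.32% in Input. Both Cnot3 RIP libraries were above the other 4, and these shares do not depend on the scaling between libraries. Of the raw reads of the 7 members, Cnot3 took 6.63% (exact Clopper-Pearson 95% interval 5.87 to 7.46) and 7.70% (7.05 to 8.39) in Cnot3 RIP. It took 3.18% (2.64 to 3.797) and 4.23% (3.56 to 4.998) in IgG RIP, and 4.22% (3.23 to 5.39) and 4.50% (3.75 to 5.36) in Input. The Cnot3 RIP intervals did not overlap any of the other 4. Such intervals cover counting error alone, because without molecular identifiers 2 reads can be copies of 1 molecule.

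For Rqcd1 the same share of raw reads was 6.09% (5.36 to 6.89) and 9.26% (8.55 to 10.01) in Cnot3 RIP, 3.02% (2.50 to 3.62) and 5.35% (4.59 to 6.19) in IgG RIP and 6.25% (5.05 to 7.64) and 6.56% (5.65 to 7.57) in Input. The 2 Cnot3 RIP libraries differed from each other beyond counting error, and replicate 1 overlapped Input. They also did for Cnot4, at 11.8% (10.8 to 12.9) and 7.13% (6.50 to 7.80). For Cnot10 the shares were 5.78% (5.07 to 6.56) and 4.28% (3.79 to 4.81), again without overlap. The intervals of Cnot1, Cnot2, Cnot3 and Cnot11 overlapped between these 2 libraries. Cnot1 took 48.1% of the summed levels per kilobase in IgG RIP replicate 1 and 32.8% to 33.8% in the other 5 libraries, which lowers the shares of the other members in that library.

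**Figure D4:**
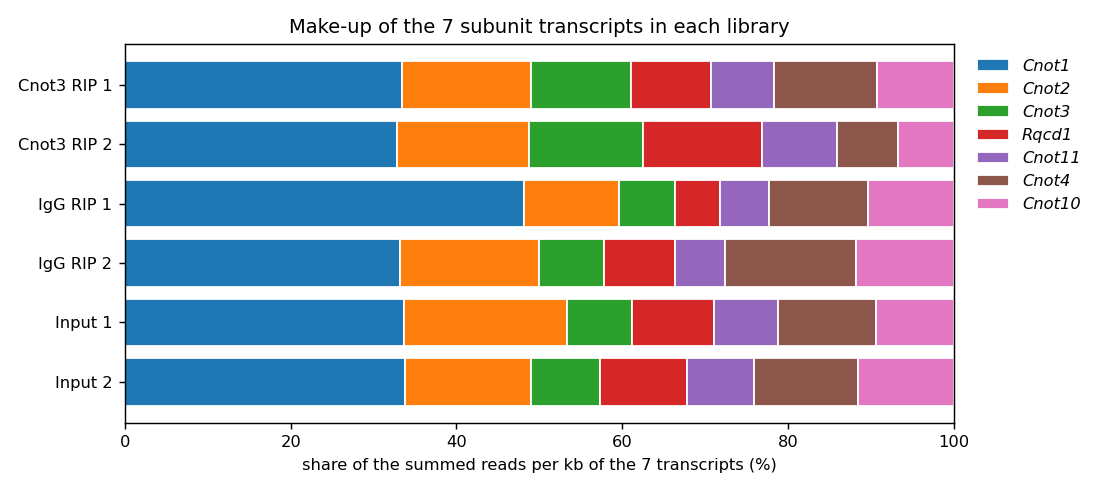
Share (%) of each gene in the summed levels per kilobase of the 7 transcripts, with 1 bar per library, Cnot3 RIP above IgG RIP above Input. The Cnot3 segment is widest in the 2 Cnot3 RIP libraries (12.2% and 13.8%), and the Cnot1 segment is widest in IgG RIP replicate 1 (48.1%).

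Ratios of 2 members within a library restate the same levels and add no separate evidence. Only chosen pairs were compared, here and above, and the share of all gene pairs that differ in this way was not computed. Rqcd1 per kilobase stood at 0.777 and 1.96 of Cnot4 in Cnot3 RIP, at 0.459 and 0.542 in IgG RIP and at 0.844 and 0.835 in Input. Cnot3 per kilobase stood at 0.979 and 1.88 of Cnot4 in Cnot3 RIP, at 0.560 and 0.497 in IgG RIP and at 0.659 and 0.663 in Input. The Cnot3 ratio was highest in both Cnot3 RIP libraries, whereas the Rqcd1 ratio of Cnot3 RIP replicate 1 lay below Input. Cnot1 per kilobase was 2.74 and 2.38 times Cnot3 in Cnot3 RIP, 7.19 and 4.22 times in IgG RIP and 4.32 and 4.07 times in Input, so scaffold and Cnot3 transcripts were closest to each other in Cnot3 RIP.

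The profiles of the 7 members over the 6 libraries were compared by the root mean square difference of log2 values, each centred on its own mean, where 0 is an identical profile. The closest members were Cnot4 and Cnot10, at 0.123. Cnot11 was near Rqcd1 (0.231), Cnot2 (0.239) and Cnot3 (0.255), and Cnot3 was 0.262 from Rqcd1. The farthest pairs were Cnot4 with Rqcd1, at 0.649, and Cnot4 with Cnot3, at 0.629. The 6 libraries share their 3 groups, so these values describe the libraries and carry no test. The partners in the protein complex were not the closest profiles: Cnot2 with Cnot3 stood at 0.381 and Cnot10 with Cnot11 at 0.438. For scale, the median difference from 12190 other genes was 0.397 for Cnot2, 0.563 for Cnot3, 0.414 for Cnot10 and 0.444 for Cnot11. It was 0.435 for Cnot4 and 0.537 for Rqcd1.

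By the same measure the genes most like each member were sought among 12190 other genes. For Cnot3 they were Fbxo11, an F-box protein of a ubiquitin ligase, at 0.052 and Galnt7, a glycosylation enzyme, at 0.053. For Cnot1 they were Sec16a, of endoplasmic reticulum exit sites, at 0.035 and Dmxl2 at 0.046. For Rqcd1 they were Slc25a16, a mitochondrial carrier, at 0.045 and Ctdsp2, a phosphatase, at 0.062. With so many candidates over 6 libraries, close profiles are found for any gene. The remaining members had Smurf2 and Slc35a1 (Cnot2, 0.056 and 0.060), H13 and Brf1 (Cnot4, 0.045 and 0.046), Rps6kc1 and Cuedc1 (Cnot10, 0.046 and 0.060) and Stat5b and Usp38 (Cnot11, 0.060 and 0.063) nearest.

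The other genes of the pathway were read from 3 lists, which like the members were chosen with earlier results of these data known. The deadenylase list held 7 genes: the subunits that cut the tail, the separate enzymes Pan2 and Parn, and Pan3, which partners Pan2. In Cnot3 RIP over IgG RIP limma called 0 of them, with 2 higher and 0 lower before adjustment (p under 0.05). Their median log2 fold change was 0.38. Of all genes 1.81% were called there, and 10.9% were higher and 6.33% lower before adjustment. edgeR's quasi-likelihood test also called 0 and DESeq2 called 1, beside 2.28% and 5.65% of all genes. Over Input 1 of 7 was called, where 8.32% of all genes were: Pan3, a regulatory partner of the Pan2 deadenylase. It had 21.3 and 32.0 scaled CPM in Cnot3 RIP, 20.2 and 19.8 in IgG RIP and 11.5 and 11.5 in Input. Its log2 fold change over Input was 1.17 in Cnot3 RIP (limma adjusted p = 0.0265) and 0.79 in IgG RIP (adjusted p = 0.0971), and Cnot3 RIP over IgG RIP gave 0.38 (adjusted p = 0.498). Pan2 was the 1 of 7 called in IgG RIP over Input, where 4.07% of all genes were, at 15.3 and 13.5 against 7.20 and 6.95 scaled CPM (log2 fold change 0.996, limma adjusted p = 0.0469). There edgeR's quasi-likelihood test called 0 of the 7 and DESeq2 called 1, beside 2.61% and 5.47% of all genes. With no filter on low values limma called 0. The Pan3 call was lost without Cnot3 RIP replicate 2 or either Input library, and the Pan2 call whenever 1 IgG RIP or Input library was left out.

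Of 23 genes for proteins known to bind or recruit the complex, 22 were tested and 10 were higher and 0 lower in Cnot3 RIP over IgG RIP, with a median log2 fold change of 1.30, where 1.54% of all genes were higher and 0.277% lower. Over Input 13 were higher and 0 lower, with a median of 1.54, where 5.86% of all genes were higher and 2.47% lower. In IgG RIP over Input limma called 0 of 22, with 5 higher and 0 lower before adjustment (p under 0.05). Of all genes 13.3% were higher and 11.7% lower before adjustment. There edgeR's quasi-likelihood test called 0 and DESeq2 called 1, beside 2.61% and 5.47% of all genes. Tnrc6a, the microRNA silencing protein that contacts the pockets of Rqcd1, had 199 and 260 scaled CPM in Cnot3 RIP, 65.2 and 57.8 in IgG RIP and 36.3 and 33.8 in Input. Zfp36l1, which binds the AU-rich pentamer, had 69.3 and 99.8 scaled CPM in Cnot3 RIP, 10.6 and 19.1 in IgG RIP and 23.2 and 19.5 in Input. Both were called higher in Cnot3 RIP in both comparisons, with log2 fold changes of 1.89 and 2.69 for Tnrc6a and 2.52 and 1.96 for Zfp36l1. The other genes of smallest p were Zfp36l2 and Btg2 over IgG RIP, at 2.03 and 3.02, and Cpeb4, Cpeb2 and Zfp36l2 over Input, at 2.77, 2.37 and 2.04. These calls depended on single libraries: over IgG RIP there were 0 without IgG RIP replicate 1 (median log2 fold change 1.14), 4 without IgG RIP replicate 2, and 6 and 16 with replicate 2 or replicate 1 of Cnot3 RIP left out. Over Input fewer were called without either Input library or without Cnot3 RIP replicate 2. In both comparisons the calls over all genes moved in the same direction. Scaled by total reads, 13 of 22 were called higher in IgG RIP over Input, where 33.8% of all genes were called.

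Of 13 decapping and repression partners, 1 was higher and 0 lower in Cnot3 RIP over IgG RIP, with a median log2 fold change of 0.48, where 1.54% of all genes were higher and 0.277% lower. It was Dcp1a, an activator of mRNA decapping, at 35.4 and 75.4 scaled CPM in Cnot3 RIP against 12.9 and 13.5 in IgG RIP (log2 fold change 1.95, limma adjusted p = 0.0289). edgeR's quasi-likelihood test called 1 higher and 0 lower there, beside 2.28% of all genes. DESeq2 called 3 higher and 1 lower, beside 5.65% of all genes. Over Input 3 were higher and 0 lower, with a median of 0.55, where 5.86% of all genes were higher and 2.47% lower: Dcp1a at 2.38, the decapping enzyme Dcp2 at 1.61 and the decapping enhancer Edc3 at 1.29. In IgG RIP over Input 1 was higher and 0 lower, where 2.58% of all genes were higher and 1.49% lower. It was Dcp1b, a relative of Dcp1a, at 6.29 and 7.70 against 1.39 and 1.45 scaled CPM (log2 fold change 2.11, limma adjusted p = 0.0190). In Cnot3 RIP over IgG RIP, Dcp1b gave −1.32 and was not called (limma adjusted p = 0.0935). The Dcp1a call over IgG RIP was lost without IgG RIP replicate 1, IgG RIP replicate 2 or Cnot3 RIP replicate 2, and the Dcp1b call whenever 1 IgG RIP or Input library was left out. Over Input the 3 calls became 0 without Input replicate 2 and 1 without Input replicate 1 or Cnot3 RIP replicate 2.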

How the data were processed

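The members and gene lists were chosen with earlier results of these data known. The authors deposited 1 table of CPM per gene symbol and library. Per the submitters' processing notes, the mm10 genome, TopHat2 2.1.0 with Bowtie2 2.2.5, edgeR, FastQC and CASAVA 1.8 were used; read counter, annotation and strand setting: not given in the sources used here. Whole reads were recovered from the CPM steps (100% of values within 0.01 read, largest deviation 0.000505).

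TMM factors (edgeR 4.0.16) came from these reads. log2(scaled CPM + 0.25) entered a trended empirical Bayes fit (limma 3.58.1, R 4.3.3) on all 6 libraries with 3 group means and no block, leaving 3 residual and 6.24 prior degrees of freedom. filterByExpr at a minimum count of 10 (0.538 CPM in 2 libraries) kept 13010 of 24421 genes. A call was a Benjamini-Hochberg adjusted p under 0.05. The procedure was tested on simulated data. edgeR's quasi-likelihood test and DESeq2 1.42.0 on the recovered reads were alternatives, with other scalings, pseudocounts, filters, blocks and left-out libraries.

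Named genes were the 7 members, the 2 genes with profiles most like each (placeholder symbols left out) and, from each list, the called genes, at most 4 of smallest p per comparison; Cnot3's antisense neighbour was added. Coordinates, exon lengths and 3′ UTRs are from GENCODE M21 (GRCm38, the assembly also named mm10).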

Additional observations from a re-analysis of the deposited data

How the results depend on the processing

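Members called in Cnot3 RIP over IgG RIP stayed at 0 under every alternative except leaving out libraries (0 to 2, Cnot3 and Rqcd1 without Cnot3 RIP replicate 1). Over Input, 0 became 7 with libraries scaled by total reads, 1 (Cnot3) with edgeR, with DESeq2 and with a crossed block, and 0 to 2 with a library left out. In IgG RIP over Input, 0 became 4 with total reads and was 0 to 0 with a library left out. Total-read scaling moved the median of all genes to 0.30, 1.02 and 0.70 in the 3 comparisons, and the calls for all genes to 592 higher and 33 lower, 7752 and 7, and 4383 and 10, against 200 and 36, 762 and 321, and 336 and 194 as reported. Total reads without Rn45s moved the median of IgG RIP over Input to −0.14 and its calls to 142 and 116. In Cnot3 RIP over IgG RIP, all-gene calls were 26 and 1 with no filter, 573 and 162 with DESeq2, 95 and 17 with only the 4 libraries compared, 0 (limma) without IgG RIP replicate 1, 85 and 35 without its replicate 2, 30 and 0 without Cnot3 RIP replicate 2, and 1043 and 263 without Cnot3 RIP replicate 1. With a library left out, all-gene calls ran from 10 and 2 (without Input replicate 2) to 1461 and 509 (without Cnot3 RIP replicate 1) in Cnot3 RIP over Input, with 98 and 10 without Input replicate 1 and 158 and 21 without Cnot3 RIP replicate 2. They ran from 16 and 4 (without IgG RIP replicate 1) to 509 and 386 (without Cnot3 RIP replicate 1) in IgG RIP over Input, so the shares of all genes called move with single libraries. For the 3 pathway lists these alternatives were added after seeing the data.

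Of the member fold changes recomputed, 326 kept direction and side of the threshold, 16 passed it in the same direction and 15 reversed, 2 of which passed it (Cnot4 and Cnot10 over Input with total reads). Scaled by total reads, Cnot1 was 0.044 in Cnot3 RIP over IgG RIP, Cnot4 was 1.04 and Cnot10 0.98 in Cnot3 RIP over Input, and Rqcd1 was 0.50 and Cnot11 0.66 in IgG RIP over Input. Scaled by total reads without Rn45s, Cnot2 was −0.13 in IgG RIP over Input. With each library left out in turn, those that changed sign ranged, in Cnot3 RIP over IgG RIP, from −0.75 to 0.17 for Cnot1 (0.17 without IgG RIP replicate 1) and from −0.060 (without Cnot3 RIP replicate 2) to 0.43 for Cnot2. In Cnot3 RIP over Input they ranged from −0.059 to 0.44 for Cnot2 (−0.059 without Input replicate 2, −0.045 without Cnot3 RIP replicate 2), from −0.17 to 0.13 for Cnot4 (0.13 without Cnot3 RIP replicate 2) and from −0.24 to 0.010 for Cnot10 (0.010 without Input replicate 2). In IgG RIP over Input they ranged from −0.20 to 0.21 for Cnot2 (−0.20 without Input replicate 2, −0.037 without IgG RIP replicate 2) and from −0.29 to 0.12 for Cnot11 (0.12 without IgG RIP replicate 2). The cause was not tested. Shares taken without dividing by length moved in 19 of 21 cases.

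Replicate numbers did not pair the samples across all groups. The replicate differences correlated at −0.32 (Cnot3 RIP and IgG RIP), 0.34 (Cnot3 RIP and Input) and −0.33 (IgG RIP and Input), so they were positive between Cnot3 RIP and Input only. With the replicate block 0 members were called in each comparison, with 292 higher and 93 lower, 643 and 166, and 248 and 77 among all genes. The crossed block, chosen after seeing the data, called 760 and 305, 1576 and 922, and 1050 and 820. With 60 to 3372 reads per member and library, the read shares of Rqcd1, Cnot4 and Cnot10 differed between the Cnot3 RIP replicates by more than counting error.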
